A study of Mus musculus with 10 samples.

Results

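A group of 32 genes for chromatin, transcription and ubiquitin regulators linked to autism was examined in the prefrontal cortex (PFC) of *Zbtb16* knockout (KO) mice. The members were picked by name from genes with reported links to autism spectrum disorder, with *Phip* and *Ctcf* also named in the study of these same libraries. The rule itself used no threshold on a measured value, but the choice was made with results of these libraries known, so the values of *Phip* are not independent of it. All 32 were found among the 22000 genes of the count table, and all 32 passed the filter on low counts that left 14344 genes for testing. Bulk RNA-seq was performed on PFC of 5 KO mice and 5 wild-type (WT) mice, 1 library per mouse. KO mice were homozygous for the luxoid (lu) allele of *Zbtb16*, a nonsense mutation carried on the B6.C3-Zbtb16lu/J line, and WT mice had the intact gene. All 10 mice were 7 weeks old and labelled male. The lu allele is constitutive, so every cell type that uses *Zbtb16* lacked the intact gene throughout life, and a single stage of adult cortex was sampled.

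These regulators set which genes a neuron can use. Remodelling enzymes slide or eject nucleosomes, methyltransferases and demethylases write and erase marks on histone tails, reader proteins and Mediator carry those marks to RNA polymerase, and ubiquitin ligases limit how long other proteins last. Loss of 1 copy of many of them is a known cause of neurodevelopmental disorders in people, which is why their dose in the cortex is of interest. ZBTB16 (also called PLZF) is a zinc finger repressor that recruits histone deacetylases and can act as an adaptor for the CUL3 ubiquitin ligase.

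Transcripts of these regulators differed little between KO and WT mice. In edgeR's quasi-likelihood test with genotype and 3 surrogate variables (estimated axes of unlabelled variation), 0 of the 32 members passed a false discovery rate (FDR, the Benjamini-Hochberg adjusted p) of 0.05, where 121 genes or 0.844% of all tested genes did. The log2 fold change (KO over WT) of the members lay between −0.08 for *Cul3* and 0.19 for *Phip*, with a median of 0.03 against −0.0044 over all tested genes. That median was 0.0029 without WT mouse 5. At an unadjusted p below 0.05, 4 members were higher in KO mice (*Phip*, *Med13l*, *Foxp1* and *Bcl11a*), against 5.51% of all tested genes, and 1 was lower (*Cul3*), against 5.1%. DESeq2 called 1 member, *Phip*, among 229 genes in all, and limma called 0 members among 8 genes. At an unadjusted p below 0.05 DESeq2 had 5 members and limma 3, and the shares over all tested genes were not computed for them.

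Total counts per library lay between 30220122 and 51231439, so that 3 counts, taken as the floor of detection, were worth 0.0586 to 0.0993 CPM (a gene's counts scaled to the library size); floors cover counting error only. The targeted gene was lower in KO mice, with *Zbtb16* at 47.4 ± 4.96 CPM (SD, n = 5) against 79.0 ± 7.23 (SD, n = 5) and a log2 fold change of −0.67 (edgeR, FDR 2.8e-05). Transcript of a gene with a nonsense mutation can persist, so its presence in KO mice says nothing of the protein. Cortical excitatory markers were present throughout, at a summed 2094.2 to 2474.7 CPM in KO and 1976.1 to 2288.4 CPM in WT mice, and choroid plexus markers stayed under 3.76 CPM in every library. Striatal neuron markers, 9 of the 10 listed, summed to 330.7 to 494.4 CPM in KO and 301.7 to 598 CPM in WT mice, and 0 of them passed the FDR threshold. The library labelled KO mouse 3 stood apart: its 4 Y-linked genes held 1 count in all, against 4376 to 8182 in each of the other 9 mice, which goes against its label of male. Without it 54 genes were called and 0 members.

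Most members were well expressed and tightly measured. Their median level was 108.5 CPM, at percentile 84.2 of the tested genes, and the member with the lowest CPM, *Adnp*, was at percentile 18.3. The coefficient of variation between mice of 1 genotype had a median of 5.64% in KO and 4.22% in WT mice over the members, against 8.76% and 7.60% over all tested genes. In 23 of the 32 members the highest mouse was less than 1.25 times the lowest, from a ratio of 1.07 for *Nsd1* to 1.94 for *Adnp*. For 31 of the 32, all but *Adnp*, the 95% interval of the fold change lay within a 1.25-fold change either way, as it did for 67.8% of all tested genes. A larger change in the mean level of those 31 transcripts was therefore outside the interval of the fit, while a change in some cells of the tissue could not be seen in bulk RNA. In bulk tissue, fewer cells of a type and less RNA per cell cannot be told apart.

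Per length, the regulators covered a wide span of levels. Dividing CPM by the exon bases of each gene in Gencode M21 (mm10) gave a median of 8.59 CPM per kb over the members against 5.56 over tested genes, and 22 members lay above that median. *Ddx3x* was the highest at 55.4 CPM per kb over the 10 mice, and *Cul3* followed with 33.3 ± 1.599 in KO and 36.1 ± 1.25 in WT mice (SD, n = 5). *Wac* was next at 20.1 ± 1.10 in KO and 20.5 ± 0.327 in WT mice. *Ctcf*, *Tcf20* and *Ankrd11*, neighbours in the order, lay between 15.96 and 17.03 CPM per kb in every genotype mean and were not set apart by their spread. *Asxl3* and *Adnp* closed the order below 1 CPM per kb, with *Phip* next at 2.32 ± 0.0817 in KO and 2.06 ± 0.111 in WT mice. The place of *Adnp* is uncertain, because most of its exon bases are shared with another annotated gene. Divided by its own bases alone, its mean level would be 3.84 CPM per kb, above that of *Phip*. The members are long genes, with a median of 14025.5 exon bases against 4589.5 and a median span of 109 kb against 26.4 kb over the tested genes with a position. Exon bases were joined over all annotated transcripts of a gene, so the transcript in use can be shorter. *Phip* had the most of any member, 33312, and its low place depends on that length.

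**Figure D1:**
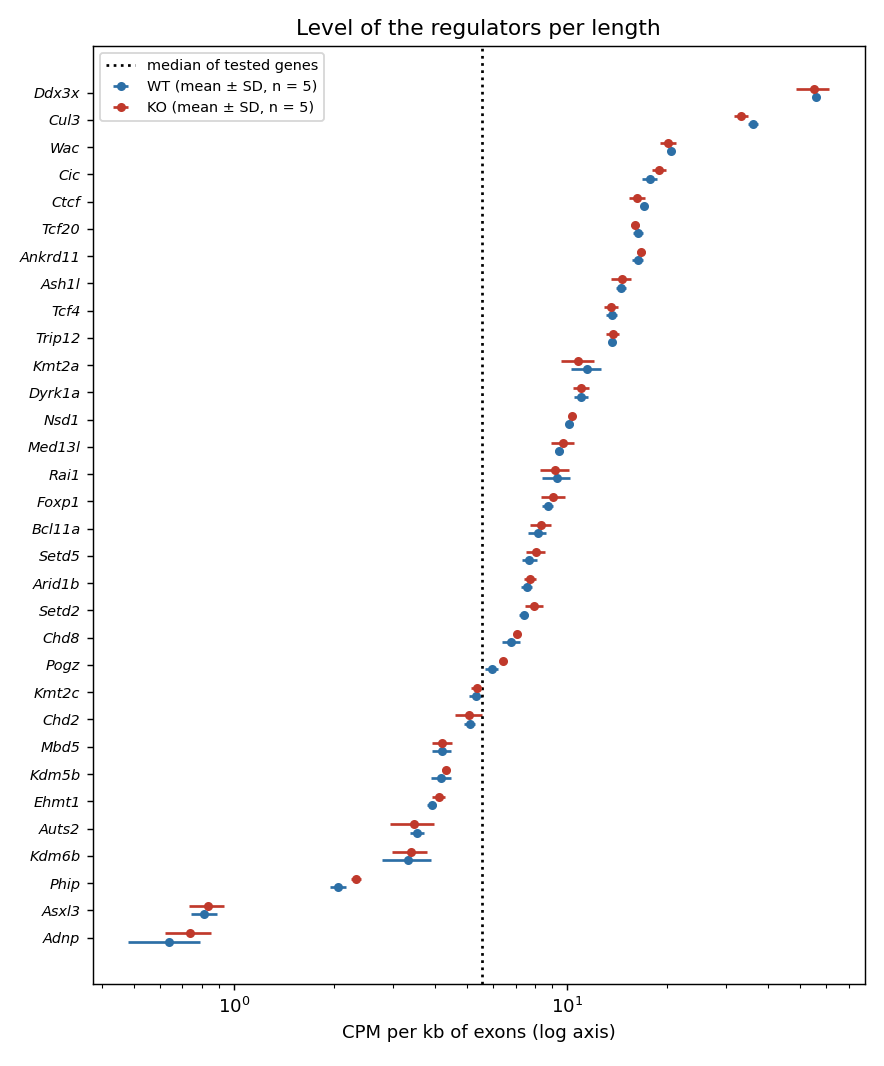
Level of each of the 32 regulators in CPM per kb of exons (x axis, log scale) in WT and KO mice, as mean ± SD over 5 mice each; the dotted line is the median of tested genes at 5.56. KO and WT points nearly coincide for most genes, and 22 of the 32 regulators lie to the right of the dotted line. The level of *Adnp* is divided by all its exon bases, including those shared with another gene.

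*Phip* was the only member whose KO and WT mice did not overlap. *Phip* encodes a bromodomain and WD40 protein that reads methylated histone H3 and belongs to a CUL4 ubiquitin ligase. It lies on chr9:82866159-82975516 (mm10, minus strand), 34.0 Mb from *Zbtb16* on the same chromosome. The 300 bases around its RefSeq start (250 before and 50 after) are shown because *Phip* was the member with separate groups and because CpG-rich starts were common in the whole set; every CG is in capitals.
Phip promoter, chr9:82975440-82975739, minus strand, GRCm38.p6: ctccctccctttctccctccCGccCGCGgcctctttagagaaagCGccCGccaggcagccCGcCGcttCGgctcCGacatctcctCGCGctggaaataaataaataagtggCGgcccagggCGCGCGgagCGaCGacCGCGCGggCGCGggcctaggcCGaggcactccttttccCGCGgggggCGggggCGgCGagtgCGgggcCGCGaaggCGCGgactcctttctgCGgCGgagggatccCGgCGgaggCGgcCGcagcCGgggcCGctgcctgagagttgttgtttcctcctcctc
This window held 41 CGs at a GC content of 72.0%. Of the 32 members, 24 had such a window in the RefSeq table, with a median of 29 CGs against 14 over 16505 genes and a median GC content of 70.3% against 57%. The observed over expected CG ratio was above 0.6 in 20 of the 24, and in 50.1% of all 16505 windows. Those 16505 genes were not limited to the genes tested here, so they include genes with little or no count in these libraries. The count ran from 1 in *Setd5* to 61 in *Med13l*. The *Setd5* window, chr6:113104685-113104984, lay inside the gene, which is annotated at chr6:113077365-113153435 (mm10, plus strand). That of *Tcf20*, with 8 CGs at chr15:82912085-82912384, also lay inside its gene, chr15:82808436-82987872 (mm10, minus strand). Those of *Arid1b*, *Bcl11a*, *Foxp1* and *Trip12* lay inside their genes as well. None of these windows therefore describes the annotated 5' end of its gene, although *Arid1b*, *Bcl11a* and *Trip12* are among the 20 above. The windows of *Pogz* and *Cul3* lay wholly before the annotated start.

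In the 5 KO mice *Phip* stood at 76.1, 77.9, 77.0, 81.5 and 74.1 CPM. In the 5 WT mice it stood at 62.7, 71.7, 68.4, 67.8 and 71.7 CPM. Every KO mouse was above every WT mouse, by 2.43 CPM at the closest, and 1.58% of all tested genes had groups that did not overlap. The log2 fold change was 0.19 (95% interval 0.09 to 0.28), or 13.9% in the fitted mean, which missed the threshold in edgeR (FDR 0.0597) and passed it in DESeq2 (adjusted p 0.0141). Over the other 12 alternatives the adjusted p was above 0.05, up to 0.49, while the log2 fold change over all 13 stayed between 0.16 and 0.19. Leaving out 1 mouse at a time kept it between 0.16 and 0.23 with adjusted p between 0.0514 and 0.316, and without the library labelled KO mouse 3 it was 0.18 (edgeR, FDR 0.174).

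The other readers and co-regulators differed less than their spread or passed only an unadjusted threshold. *Med13l*, on chr5:118560679-118765438 (mm10, plus strand), encodes a subunit of the kinase module of Mediator, the complex that bridges transcription factors and RNA polymerase II. Its level was 161.3, 143.5, 153.2, 158.1 and 132.2 CPM in KO mice and 144.2, 153.5, 145.1, 144.4 and 142.9 CPM in WT mice, so that the KO range enclosed the WT range. The fitted log2 fold change was 0.10 (edgeR, FDR 0.291), and 0.04 with genotype alone (FDR 0.916). *Ankrd11*, a co-regulator that recruits histone deacetylases, had 275.8 ± 7.56 against 270 ± 10.97 CPM (SD, n = 5 each). *Rai1* (88.3 ± 9.003 against 89.3 ± 8.56 CPM) and its relative *Tcf20* (131.6 ± 3.70 against 134.7 ± 4.34 CPM), which bind nucleosomes, had log2 fold changes of −0.0039 and −0.02.

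Among the DNA-binding factors, *Foxp1* and *Bcl11a* had the next largest estimates after *Phip*. *Foxp1*, on chr6:98925338-99522721 (mm10, minus strand), is a forkhead repressor of cortical and striatal projection neurons. It was at 137.6, 111.1, 122.5, 131.5 and 122.7 CPM in KO mice and at 117.6, 126.4, 118.2, 115.9 and 123.6 CPM in WT mice. The groups overlapped, and the KO mice held both the highest and the lowest value. The log2 fold change was 0.11 (edgeR, FDR 0.301) and 0.06 with genotype alone (FDR 0.849). *Bcl11a*, on chr11:24078056-24174123 (mm10, plus strand), encodes a zinc finger partner of the BAF remodelling complex, and it was at 121.5, 109.6, 104.3, 114.1 and 100.7 CPM in KO mice and at 107.5, 117.5, 101.2, 101.7 and 109.2 CPM in WT mice. Its groups also overlapped across most of their range, with a log2 fold change of 0.10 (edgeR, FDR 0.343) and of 0.03 with genotype alone (FDR 0.925). A striatal marker score was also put in the model in place of the surrogate variables. The score was the mean of log2(CPM + 1) over the tested striatal markers, each centred on its mean over the mice. The log2 fold change was then 0.06 for *Foxp1*, 0.04 for *Bcl11a* and 0.06 for *Med13l* (edgeR, FDR 0.899, 0.93 and 0.884). The part of striatal tissue in these differences was not tested further.

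*Ctcf*, the insulator protein that halts cohesin at loop anchors, was measured with a CV of 1.68% in WT mice. It stood at 82.4, 78.9, 80.7, 81.0 and 71.7 CPM in KO mice and at 83.5, 84.8, 82.2, 81.2 and 82.1 CPM in WT mice. KO mouse 1 lay within the WT range, KO mice 2 to 4 just below it and KO mouse 5 farther below. The log2 fold change was −0.03 (95% interval −0.11 to 0.05, edgeR, FDR 0.844). *Cic*, a repressor downstream of growth factor signalling, was at 194.8 ± 9.68 against 182.3 ± 9.26 CPM (SD, n = 5 each), a log2 fold change of 0.08 (edgeR, FDR 0.529). *Tcf4*, a basic helix-loop-helix factor, was the most abundant member by CPM, at 371 ± 17.9 in KO and 372.3 ± 14.1 in WT mice (SD, n = 5 each). Its log2 fold change was 0.0060 (95% interval −0.06 to 0.08).

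**Figure D2:**
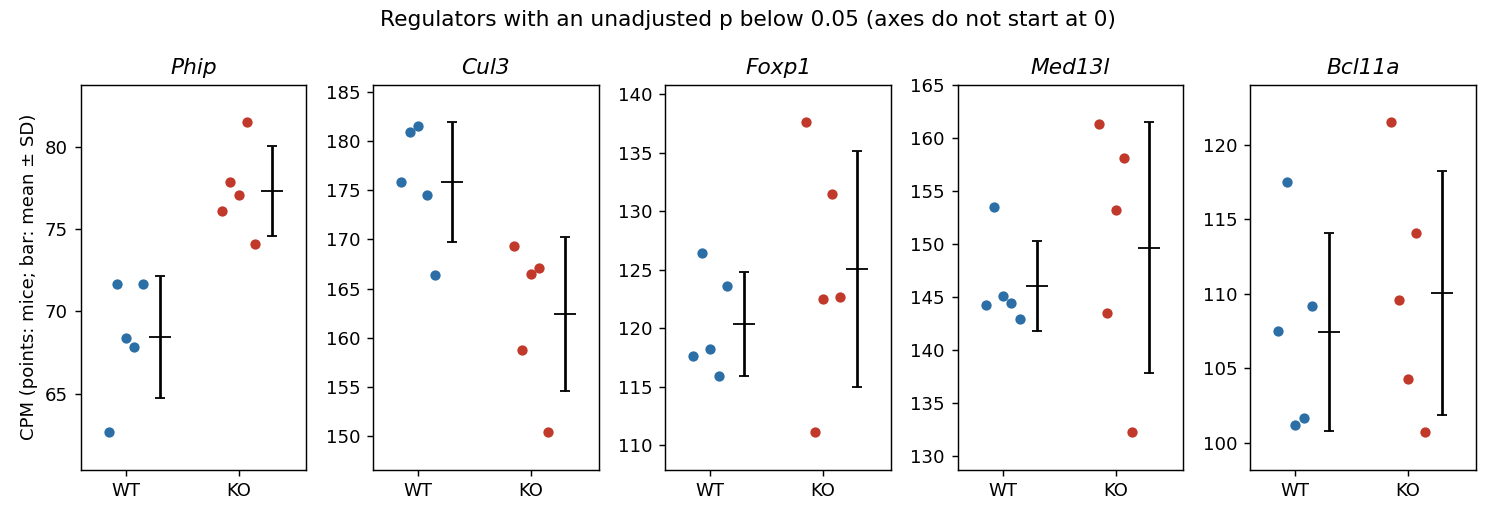
CPM of the 5 regulators with an unadjusted p below 0.05, with 1 point per mouse and the mean ± SD of 5 mice beside the points; the y axes do not start at 0. The *Phip* groups are apart by 2.43 CPM, while those of *Cul3*, *Foxp1*, *Med13l* and *Bcl11a* overlap.

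Of the ubiquitin genes, *Cul3* had the lowest estimate of all members. *Cul3* encodes the scaffold of the ligase family that uses BTB proteins as substrate adaptors. It lies on chr1:80264923-80340480 (mm10, minus strand). Its level was 169.3, 158.8, 166.5, 167.1 and 150.4 CPM in KO mice. In WT mice it was 175.8, 180.9, 181.5, 174.5 and 166.4 CPM. Of the 5 WT mice, 4 lay above every KO mouse, and WT mouse 5 lay among the KO mice. The log2 fold change was −0.08 (edgeR, FDR 0.401), and −0.11 with genotype alone (FDR 0.526). *Trip12*, a HECT-domain ligase, was at 227.9 ± 10.4 against 225.8 ± 3.61 CPM, and *Wac*, an adaptor for histone H2B ubiquitination, at 118.8 ± 6.51 against 121.5 ± 1.94 CPM (SD, n = 5 each), with log2 fold changes of 0.02 and −0.0071.

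The 5 chromatin remodelling genes all had estimates above 0, from 0.03 to 0.09, and 0 of them reached an unadjusted p of 0.05. Over all tested genes 48.1% of estimates were above 0. With genotype alone *Chd2* was at −0.0072, and *Adnp* and *Chd8* changed sign on leaving out certain mice. *Chd8*, a helicase of the CHD family and a leading autism gene, was at 117.2, 117.2, 119.1, 113.2 and 119.3 CPM in KO mice and 110, 106.1, 123, 115.2 and 107.8 CPM in WT mice. The KO mice lay inside the WT range, and the log2 fold change was 0.03 (95% interval −0.04 to 0.11). *Chd2*, a related remodeller that deposits histone H3.3, was at 72.6 ± 6.71 against 72.9 ± 2.63 CPM. *Arid1b*, a subunit of the BAF complex, was at 97.5 ± 4.15 against 95.2 ± 3.52 CPM, and *Pogz*, a zinc finger protein that binds heterochromatin protein 1, at 59.0 ± 1.42 against 54.7 ± 2.51 CPM (SD, n = 5 each). The *Pogz* log2 fold change was 0.09 (edgeR, FDR 0.538) and 0.11 with genotype alone (FDR 0.581). With genotype alone, 3 members (*Phip*, *Cul3* and *Pogz*) had an unadjusted p below 0.05, against 8.02% of all tested genes, and 0 members passed the FDR, against 0.209%.

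*Adnp*, the homeobox protein that joins CHD4 and heterochromatin protein 1, shares most of its exons with another annotated gene. Its levels were 3.78, 3.73, 3.76, 3.42 and 5.01 CPM in KO and 2.96, 2.58, 4.74, 3.14 and 3.61 CPM in WT mice, the lowest of the 32 members. In Gencode M21, 4393 of its 5350 exon bases (82.1%) also belong to *Gm20716*, a same-strand gene on chr2:168180986-168230364 (mm10), which leaves 957 bases of its own. Intersection-strict counting gives reads in exons shared by 2 counted genes to neither, and the mean *Adnp* level would then be 3.84 CPM per kb of its own bases. *Gm20716* is annotated as protein-coding in Gencode M21, the class of gene that the authors counted. Whether it has a row of its own in the count table was not checked, so the total level of *Adnp* is uncertain. The other 31 members shared less than 5% of their exon bases with another gene on either strand, and 26 shared none. The interval of the *Adnp* log2 fold change, −0.28 to 0.40, was the widest of the 32.

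Of the 7 histone methyltransferase genes, 6 had estimates above 0, against 48.1% of all tested genes, and 0 reached an unadjusted p of 0.05. The signs of *Ash1l*, *Kmt2a*, *Kmt2c* and *Setd5* changed in some alternatives or omissions of a mouse. *Nsd1*, which dimethylates H3K36, had the smallest spread between mice, with 179.1, 176.9, 180.4, 182.1 and 184.2 CPM in KO and 183.7, 177.6, 180.1, 175.5 and 171.3 CPM in WT mice. The ranges overlapped, and the interval of its log2 fold change was −0.04 to 0.10. *Setd2*, the enzyme that trimethylates H3K36, had the highest estimate of the 7 at 0.07 (85.5 ± 5.38 against 79.7 ± 2.58 CPM, SD, n = 5 each; edgeR, FDR 0.653). *Kmt2a*, a founding H3K4 methyltransferase, had the only estimate below 0 at −0.05 (180.2 ± 20.4 against 191 ± 19.9 CPM; edgeR, FDR 0.740), with a CV over 10% in each genotype. *Kmt2a* lies 3.77 Mb and *Setd2* 61.7 Mb from *Zbtb16* on chromosome 9. *Ash1l* (216.2 ± 14.9 against 215.8 ± 7.24 CPM), *Kmt2c* (108.8 ± 4.73 against 107.9 ± 4.73 CPM), *Setd5* (147.4 ± 9.85 against 141.3 ± 7.38 CPM) and *Ehmt1* (33.4 ± 1.57 against 31.8 ± 1.03 CPM), which write H3K36, H3K4 or H3K9 methylation or carry a SET domain, had estimates between 0.02 and 0.06.

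The pair of demethylases and the Polycomb-linked genes also gave no call. *Kdm5b*, an H3K4 demethylase, was at 71.4 ± 1.83 against 69.2 ± 4.81 CPM, and *Kdm6b*, an H3K27 demethylase, at 23.6 ± 2.84 against 23.2 ± 3.87 CPM (SD, n = 5 each), with log2 fold changes of 0.07 and 0.06. *Asxl3*, a partner of the H2A deubiquitinase BAP1, was at 12.1, 12.7, 11.8, 12.5 and 15.6 CPM in KO mice and 12.2, 12.03, 14.6, 12.5 and 11.97 CPM in WT mice. A single mouse of each genotype, KO mouse 5 and WT mouse 3, stood above the rest. *Auts2*, an activator within a Polycomb complex, was at 90.9, 84.2, 84.0, 78.1 and 59.7 CPM in KO and 85.0, 75.5, 82.5, 83.7 and 79.1 CPM in WT mice, and its lowest value was again KO mouse 5. *Mbd5*, a methyl-CpG binding domain protein that binds the BAP1 complex, was at 82.9 ± 5.68 against 82.6 ± 5.25 CPM. *Dyrk1a*, a dual-specificity kinase of neuronal growth, was at 91.0 ± 5.28 against 90.9 ± 4.61 CPM, with a log2 fold change of −0.01.

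**Figure D3:**
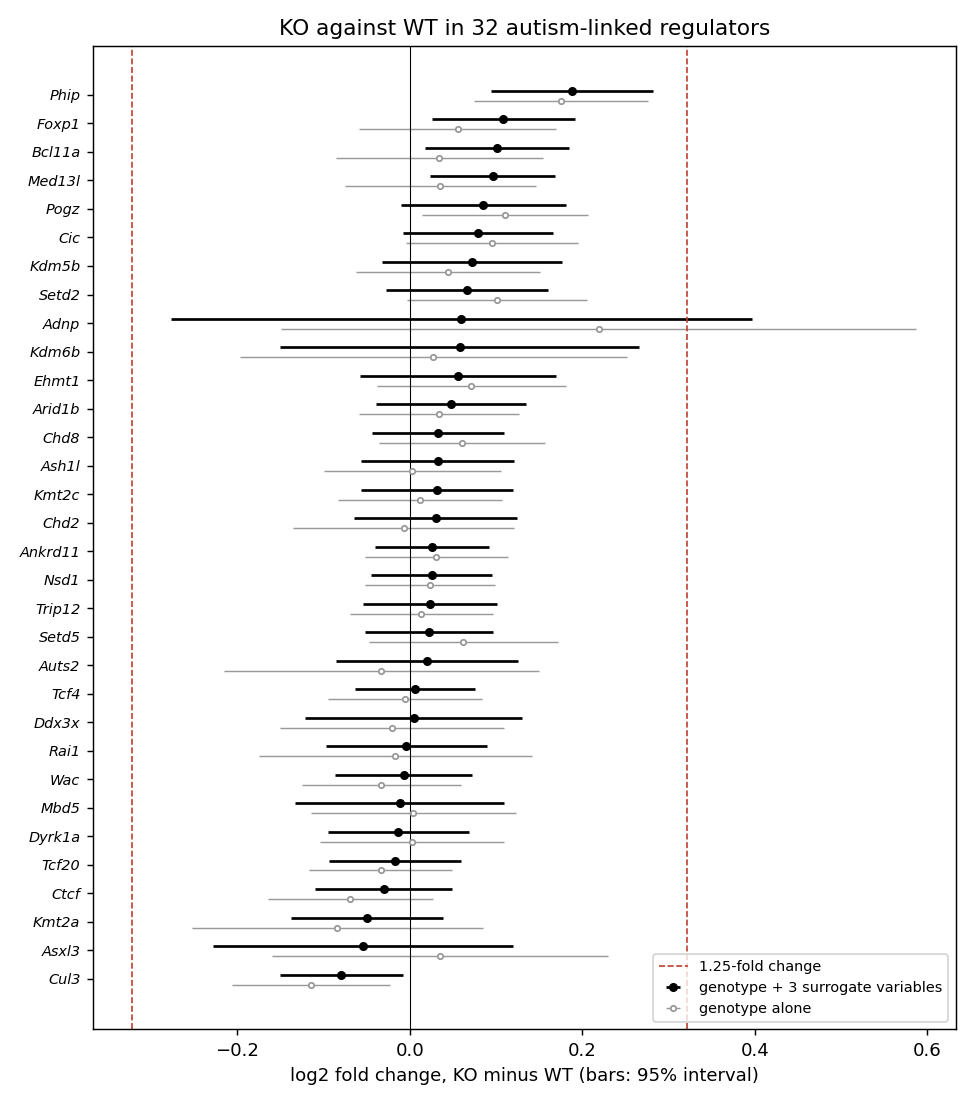
Log2 fold change (KO over WT) with its 95% interval for each regulator, in the model with 3 surrogate variables (black) and with genotype alone (grey); dashed lines mark a 1.25-fold change. All black intervals except that of *Adnp* lie between the dashed lines, and *Phip* at 0.19 is the farthest from 0.

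Estimates above 0 were the more common sign. Of the 32 members, 23 had a log2 fold change above 0 with surrogate variables and 22 with genotype alone, against 48.1% of all tested genes with them. The members were not independent of each other, since within a genotype the mean correlation of log2 CPM over their 496 pairs was 0.13, with 10 mice behind each, against 1.9e-05 over all tested genes. Only 14 members kept their sign in all 13 alternatives and all 10 omissions of a mouse, among them *Phip*, *Foxp1*, *Bcl11a*, *Med13l*, *Pogz*, *Cic* and *Setd2* above 0 and *Cul3* and *Ctcf* below it.

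*Ddx3x* was set apart by 1 library. It encodes an X-linked RNA helicase, and its Y-linked relative *Ddx3y* has a similar coding sequence, so the same 90 coding bases around the DEAD-box motif are shown to make clear how far reads of 1 could be taken for the other, with the 17 bases that differ in capitals.
Ddx3x, coding bases 1000 to 1089, Gencode M21: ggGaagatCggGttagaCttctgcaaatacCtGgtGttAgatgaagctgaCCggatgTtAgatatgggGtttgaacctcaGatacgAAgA
Ddx3y, coding bases 997 to 1086, Gencode M21: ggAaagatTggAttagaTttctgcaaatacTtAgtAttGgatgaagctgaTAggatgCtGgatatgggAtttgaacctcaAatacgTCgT
Over the whole coding sequence the identity was 84.6%, and 0 of the 1889 windows of 101 bases, the read length, in *Ddx3x* occurred in a *Ddx3y* transcript. *Ddx3x* was at 279.4, 270.1, 348.3, 285.7 and 268.3 CPM in KO mice and at 297.2, 296.3, 285.2, 293.2 and 300.3 CPM in WT mice. KO mouse 3 exceeded every other mouse, 3 of the remaining KO mice lay below the WT range, and KO mouse 4 lay at its lower end. That library held 1 count of *Ddx3y* and was at 1.22 times the median of the other 9 mice for *Ddx3x*. The X-linked demethylases *Kdm5c* and *Kdm6a* were at 1.37 and 1.24 times and *Eif2s3x* at 1.46 times, all 3 named after their values were seen. As background, these X-linked genes are expressed from both X chromosomes in female mice.

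With all 10 mice the log2 fold change of *Ddx3x* was 0.0046 (edgeR, FDR 0.988). Without the library labelled KO mouse 3 the KO level was 275.9 ± 8.14 CPM (SD, n = 4) against 294.4 ± 5.77 (SD, n = 5), and the log2 fold change was −0.08, at an unadjusted p below 0.05 and an FDR of 0.571 in edgeR. Of the other members with an unadjusted p below 0.05 with all mice, the log2 fold change without that library was 0.10 for *Med13l*, 0.11 for *Foxp1*, 0.12 for *Bcl11a* and −0.07 for *Cul3*. Of those 4, *Cul3* alone no longer had an unadjusted p below 0.05 (edgeR, FDR 0.634).

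**Figure D4:**
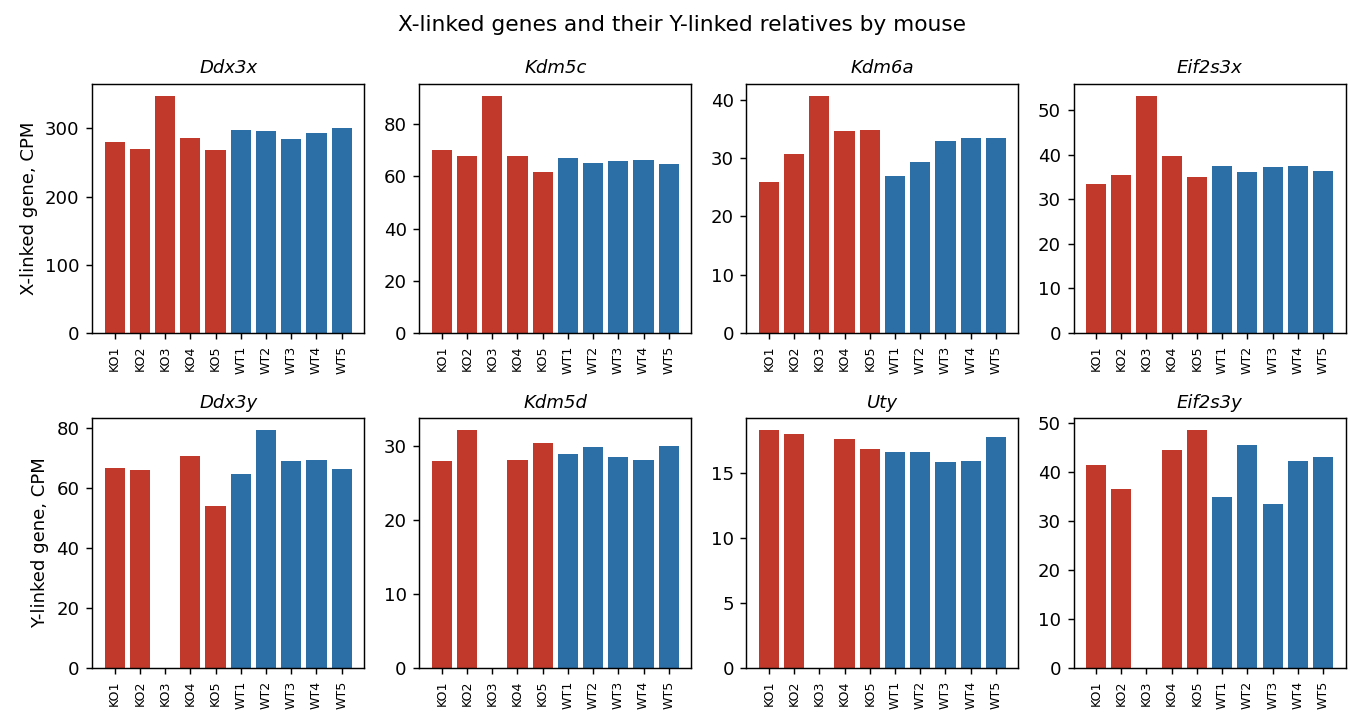
CPM of 4 X-linked genes (upper row) and their Y-linked relatives (lower row) in each of the 10 mice, KO in red and WT in blue. KO mouse 3 has the tallest bar for each X-linked gene and no visible bar for any Y-linked gene.

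Single mice departed from their group for several members at once. KO mouse 5, the deepest library, was the highest or the lowest of the 10 mice for 20 of the 32 members (62.5%), against 37.2% of all tested genes. It was highest for *Adnp*, *Pogz*, *Dyrk1a*, *Setd5*, *Setd2*, *Nsd1* and *Asxl3*, and lowest for 13 members, among them *Chd2*, *Kmt2a*, *Auts2*, *Ctcf* and *Cul3*. WT mouse 4 was at neither end for any member. The RNA integrity number (RIN), a measure of RNA quality given in the labels, ran from 8.1 in KO mouse 5 to 9.8 in WT mouse 1, with 2 mice of each genotype at 8.3 or below and 3 at 9.5 or above.

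In a model with genotype and RIN, 0 of the 32 members had a RIN slope past the FDR of 0.05, against 0.397% of all tested genes in edgeR. DESeq2 called 283 genes and also 0 members, and the 57 genes called in edgeR became 1 without WT mouse 3 and 98 without KO mouse 2. At an unadjusted p below 0.05 there were 4, against 11.1% of all tested genes. *Bcl11a* had a slope of 0.10 log2 units per RIN unit (edgeR, FDR 0.180), while *Chd8* had −0.06, *Setd5* −0.08 and *Adnp* −0.24 (edgeR, FDR 0.398, 0.324 and 0.412). The part of RNA quality in the extreme position of KO mouse 5 was not tested.

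**Figure D5:**
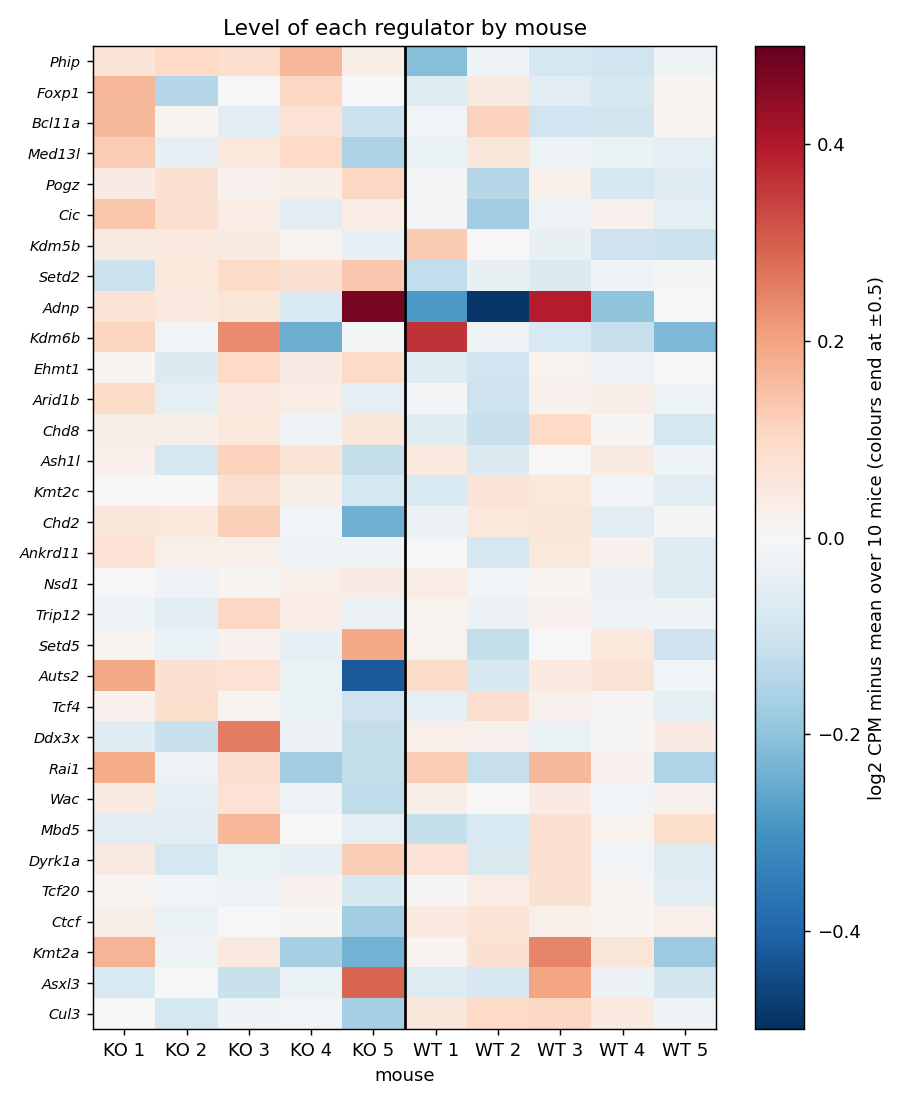
Log2 CPM of each regulator minus its mean over the 10 mice (colour, ending at ±0.5), with mice in columns, KO left of the black line and WT right of it, and genes ordered by log2 fold change. *Phip* in the top line is above its mean in every KO mouse and below it in every WT mouse, and KO mouse 5 departs from its neighbours in many lines.

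The complexes in which the members work gave no call in edgeR. Of 24 BAF subunits, 0 passed the FDR threshold in edgeR, 3 were higher and 2 lower at an unadjusted p below 0.05, and the median log2 fold change was −0.0028. The shares over all tested genes at that p, for this and the lists that follow, were 5.51% higher and 5.1% lower. The share of estimates above 0 was 48.1%. The smallest p was that of *Smarca2*, an ATPase of BAF, at 334.8 ± 13.0 against 304.8 ± 15.1 CPM (SD, n = 5 each), a log2 fold change of 0.15 (edgeR, FDR 0.064). DESeq2 called 1 BAF subunit and limma 0. Of 15 COMPASS subunits, which carry H3K4 methyltransferases, 12 had an estimate above 0, 0 had an unadjusted p below 0.05 and the median was 0.02, with *Rbbp5* at 0.06 as the smallest p.

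Among 12 enzymes of H3K9 and H3K36 methylation the median was 0.05, and 1 was lower at an unadjusted p below 0.05 (*Nsd2*, −0.07, FDR 0.462). For 10 genes of the CHD family and partners of ADNP the median was 0.0093, with 2 higher at that p (*Chd3* at 0.10 had the smallest, FDR 0.271). The 10 Mediator subunits had a median of 0.01 and 1 higher (*Med1*, 0.12, FDR 0.315), and the 10 cohesin genes, partners of CTCF, had a median of −0.0064 and 0 at that p (*Pds5a*, 0.04, FDR 0.766). The 10 partners of CUL3 and WAC had a median of 0.01 and 1 higher (*Rnf40*, an H2B ubiquitin ligase, 0.10, FDR 0.379).

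Of 31 tested paralogues of the members, 18 were above 0, 3 were higher and 1 was lower at an unadjusted p below 0.05, and the median log2 fold change was 0.01. The paralogues include Y-linked genes. Their lowest estimate, −0.44, was that of *Ddx3y*, which had 1 count in the library labelled KO mouse 3. The smallest p was that of *Dyrk1b*, a relative of *Dyrk1a*, at 0.22 (edgeR, FDR 0.207). Of 20 other chromatin and transcription genes linked to autism, 15 were above 0 with a median of 0.04, and 4 were higher and 1 lower at that p, led by *Rorb*, a layer 4 nuclear receptor, at 0.26 (edgeR, FDR 0.227). The lists share genes, so their counts at that p are not separate. *Chd3* and *Chd7* were counted here and in the CHD family list. *Chd7* was counted again among the paralogues, as was *Nsd2* of the H3K9 and H3K36 list. None of the genes of these lists passed the FDR threshold in edgeR or limma.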

How the data were processed

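The authors aligned 101 bp paired-end reads from stranded libraries to mm10 with STAR (2.7.1a), kept uniquely mapped reads and counted them per protein-coding gene on Gencode M21 exons (HTSeq 0.9.1, intersection-strict). The strand setting is not given in the sources used here. The deposited values are raw counts per gene and library. Groups and replicate numbers came from the labels. Members and lists were chosen with earlier results of these data known.

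Differential expression was tested with edgeR (4.0.16, R 4.3.3), using its low-count filter, TMM normalization, the quasi-likelihood test and Benjamini-Hochberg adjustment over 14344 genes, with genotype and 3 surrogate variables from sva (3.50.0) on log2(CPM + 1). Printed CPM used TMM library sizes. The study's linear model on CPM was replaced by the count test because the deposited values are counts. DESeq2 (1.42.0) and limma (3.58.1) were alternatives. The text names all 32 members, *Zbtb16*, Y-linked genes, list genes past the FDR in edgeR (there were 0) and the gene of smallest p in each related list. *Kdm5c*, *Kdm6a*, *Eif2s3x*, *Chd7*, *Pvalb*, *Sst*, *Vip* and *Gm20716* fall outside that rule and were named after their values or positions were seen. Marker lists covered striatal, cortical excitatory and inhibitory neurons, oligodendrocytes, astrocytes, microglia, endothelial cells and choroid plexus. Whether each mouse came from a separate litter is not stated, so p-values measure the spread between these mice. Depth was 30220122 to 51231439 counts per library. Replicate numbers were checked as a pairing and not used. Promoter windows came from RefSeq (GRCm38.p6) and coding sequences from Gencode M21. Motif search was limited to CG, which reads the same on both strands.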

Additional observations from a re-analysis of the deposited data

Results flagged for a closer look

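In 7 of 66 groups of 5 mice, 1 mouse lay far from the other 4 by Dixon's test, where chance flags about 1 in 20 groups, or 3.3 of 66. KO mouse 3 was high for *Ddx3x* at 348 CPM (next 286) and for *Mbd5* at 92.8 CPM (next 82.4), and this is the library with 1 count over the Y-linked genes. KO mouse 5, with the lowest RIN, was high for *Adnp* at 5.01 CPM (next 3.78), *Setd5* at 164 CPM (next 146) and *Asxl3* at 15.6 CPM (next 12.7). WT mouse 3 was high for *Asxl3* at 14.6 CPM (next 12.5). WT mouse 2 was high for *Med13l* at 153 CPM (next 145). With genotype in the model, the RIN slopes of *Adnp*, *Setd5* and *Asxl3* were −0.24, −0.08 and −0.11 log2 units per RIN unit (edgeR, FDR 0.412, 0.324 and 0.507). The part of RNA quality in the values of these single mice was not tested. The share of groups flagged over all tested genes was not computed.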

How the results depend on the processing

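The count of 0 members called held in edgeR under every alternative and omission of a mouse, and in limma; DESeq2 called 1 (*Phip*). The number of genes called moved from 121 to 30 with no surrogate variables, 34 with 1, 57 with 2, 38 with RIN, 13 with the striatal marker score, 75 with a pseudocount of 0.1, 229 in DESeq2 and 8 in limma, and to 39 to 248 on leaving out 1 mouse (59 without KO mouse 1, 248 without KO mouse 2, 54 without KO mouse 3, 39 without WT mouse 3, 65 without WT mouse 4). The cause was not tested. *Zbtb16* stayed between −0.70 and −0.60 on leaving out a mouse and between −0.74 and −0.60 otherwise. Same-numbered mice of the 2 genotypes had correlations of 0.17, −0.0018, 0.12, −0.11 and 0.10, and 4 of 10 mice correlated best with their own number. No value expected by chance was computed for these figures, so whether the numbers mark pairs was not settled. A replicate block in place of surrogate variables gave 24 genes, 0 members and −0.74 for *Zbtb16*. No RIN slope of a member was called in any alternative, while the genes called with RIN, 57 in edgeR, were 11 with no genotype term, 283 in DESeq2 and 1 to 98 on leaving out a mouse. The median log2 fold change of the members was 0.015 to 0.037 over the alternatives and 0.0029 to 0.029 on leaving out a mouse, lowest without WT mouse 5.

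The related lists, with 0 calls, gained 1 call in the BAF list (DESeq2, no low-count filter, or without KO mouse 2 or WT mouse 2), the synaptic list (DESeq2, or without KO mouse 1, 2, 4 or 5) and the list of other chromatin genes (without KO mouse 2 or WT mouse 1).

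Estimates near 0 changed sign, none past the FDR. With the replicate block these were *Chd2* −0.011, *Dyrk1a* 0.0019, *Asxl3* 0.031, *Tcf4* −0.0059, *Auts2* −0.045, *Mbd5* 0.0039 and *Ddx3x* −0.027. With no surrogate variables they were *Chd2* −0.0072, *Dyrk1a* 0.0029, *Asxl3* 0.035, *Tcf4* −0.0055, *Auts2* −0.033, *Mbd5* 0.0042 and *Ddx3x* −0.020. With 1 surrogate variable they were *Mbd5* 0.0059 and *Rai1* 0.016. With 2 they were *Mbd5* 0.0046, *Ddx3x* −0.00083 and *Rai1* 0.023. With 4 they were *Dyrk1a* 0.0074, *Ash1l* −0.011, *Kmt2c* −0.00088, *Ddx3x* −0.089, *Trip12* −0.014 and *Rai1* 0.016. With RIN they were *Chd2* −0.0073, *Dyrk1a* 0.0014, *Asxl3* 0.032, *Tcf4* −0.0056, *Auts2* −0.036, *Mbd5* 0.0028 and *Ddx3x* −0.022. With the striatal score they were *Dyrk1a* 0.014, *Kmt2a* 0.0035, *Asxl3* 0.021, *Ddx3x* −0.015 and *Rai1* 0.051. Without the low-count filter they were *Wac* 0.0012 and *Rai1* 0.0044, with the pseudocount of 0.1 *Auts2* −0.0019 and *Ddx3x* −0.054, in limma *Ddx3x* −0.00055, and with surrogate variables from TMM-scaled CPM, chosen after seeing the data, *Rai1* 0.0044. On leaving out 1 mouse the ranges that crossed 0 were *Adnp* −0.012 to 0.22, *Ash1l* −0.0097 to 0.052, *Asxl3* −0.087 to 0.0048, *Auts2* −0.023 to 0.059, *Chd8* −0.0069 to 0.057, *Ddx3x* −0.077 to 0.057, *Dyrk1a* −0.052 to 0.014, *Kdm6b* −0.063 to 0.19, *Mbd5* −0.063 to 0.025, *Rai1* −0.087 to 0.033, *Setd5* −0.017 to 0.038, *Tcf20* −0.036 to 0.0077, *Tcf4* −0.012 to 0.019, *Trip12* −0.0045 to 0.049 and *Wac* −0.021 to 0.00078.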

Other observations

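A list of 30 autism-linked synaptic and neuronal genes had 28 estimates above 0 and a median log2 fold change of 0.04, and 0 passed the FDR threshold in edgeR or limma while DESeq2 called 1. Over all tested genes 48.1% of estimates were above 0. Of the 30, 9 were higher at an unadjusted p below 0.05 and 0 were lower, against 5.51% and 5.1% of all tested genes, among them *Rims1*, a scaffold of the presynaptic active zone, at 407.8 ± 10.01 against 371.3 ± 27.4 CPM (SD, n = 5 each), a log2 fold change of 0.16 (edgeR, FDR 0.132). Their summed level was 12228.9 to 12867 CPM in KO and 11899.6 to 12394.4 CPM in WT mice.

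Of the cell type markers, 0 passed the FDR threshold in edgeR. The 6 inhibitory neuron markers summed to 775.1 to 870.5 CPM in KO and 834.8 to 928 CPM in WT mice, and 3 of them were lower at an unadjusted p below 0.05 (*Pvalb*, *Sst* and *Vip*, named after their values were seen), against 5.1% of all tested genes. *Pvalb* had a RIN slope of 0.27 log2 units per RIN unit (edgeR, FDR 0.030), and with genotype alone *Sst* was no longer at an unadjusted p below 0.05. Oligodendrocyte markers summed to 6138.5 to 8923 CPM in KO and 6377.8 to 8008.2 CPM in WT mice, astrocyte markers to 4227.3 to 4964.3 and 4428.6 to 4916.5, microglia markers to 229.5 to 255.3 and 212.5 to 242.6, and endothelial markers to 150.4 to 181.2 and 162.8 to 181.8.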
